A study of Mus musculus and Ictidomys tridecemlineatus with 36 samples.

Results

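Narrow H3K4me3 peaks that carried H3K4me1 and no H3K27ac were examined in CUT&RUN data from developing retinas of the 13-lined ground squirrel (13LGS), a cone-dominant hibernator, and of the mouse, a rod-dominant species. CUT&RUN maps a chromatin mark or bound protein by antibody-guided cutting of DNA in intact nuclei, and a peak is an interval where the recovered fragments exceeded those of an IgG control. A member was an H3K4me3 peak under 3000 bp wide that overlapped an H3K4me1 peak by 1 bp or more and no H3K27ac peak of the same species. Members were thus chosen by measured values, namely H3K4me3 width and the calls of H3K4me1 and H3K27ac. This rule took 8149 of 14069 H3K4me3 peaks in mouse (57.9%) and 7141 of 18020 in 13LGS (39.6%), or 15290 of 32089 in all.

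Members were set beside 3 other kinds of H3K4me3 peak. Acetylated peaks were under 3000 bp and overlapped H3K27ac (3477 in mouse and 6542 in 13LGS). H3K4me3-only peaks were under 3000 bp and overlapped neither mark (1503 and 3456). Broad peaks were 3000 bp or wider (940 and 881).

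The mouse samples were postnatal day 2 (P2) retinas and the 13LGS samples were P5 retinas, stages that the study matched for late progenitors and photoreceptor precursors. The labels gave no genotype or treatment for either species. Each mouse replicate pooled the retinas of 3 animals and each 13LGS replicate those of 2. The mouse H3K4me3, H3K4me1, H3K27ac, and IgG data came from 2 libraries each, Neurod1 from 4, and Otx2 from 8. In 13LGS, each histone mark came from 1 library, IgG from 3, Neurod1 from 4, and Otx2 from 6. These libraries stand for no more than 2 biological replicates per species, since the Neurod1, Otx2, and 13LGS IgG libraries include technical repeats and 13LGS histone marks came from replicate 2 alone. The Otx2 libraries also mix 2 antibodies, labelled RD and Atlas, and in 13LGS Atlas was used on replicate 2 only. Every list gave 1 value per peak for its pooled libraries, so there was no spread between replicates, and each p-value below takes peaks as units and describes the lists, not animals. All lists of a species shared the IgG control. The retina is a mixed tissue, so a weak or absent peak in few cells and in every cell cannot be told apart.

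H3K4me3 marks the nucleosomes around gene starts and H3K4me1 the flanks of promoters and the bodies of enhancers. H3K27ac is laid down at promoters and enhancers in use, and promoters with methylated H3K4 and without H3K27ac are often discussed as poised or bivalent, a term that also needs H3K27me3, which was not analysed here. Otx2 is a homeodomain factor that specifies photoreceptors and bipolar cells, and Neurod1 is a basic helix-loop-helix factor that acts in photoreceptor differentiation.

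The following stretches at or beside mouse members, each 150 bases on the plus strand of GRCm38, show sequences of differing CpG content. The first 2 are centred on the H3K4me3 summit, with CG dinucleotides in capitals. They are the member of highest H3K4me3 enrichment (*Ywhae*, a 14-3-3 adaptor protein gene) and the strongest at a ribosomal protein gene (*Rpl5*).
Ywhae, chr11:75733586-75733735: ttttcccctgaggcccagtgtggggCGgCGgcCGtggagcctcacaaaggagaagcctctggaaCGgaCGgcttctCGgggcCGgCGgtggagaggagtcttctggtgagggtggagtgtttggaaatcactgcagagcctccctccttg
Rpl5, chr5:107901006-107901155: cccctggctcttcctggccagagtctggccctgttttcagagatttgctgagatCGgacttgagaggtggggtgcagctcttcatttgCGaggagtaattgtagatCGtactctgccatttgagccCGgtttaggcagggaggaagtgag
The stretch of *Ywhae* held 8 CG dinucleotides and that of *Rpl5* 4. Over all mouse members the median was 11 (quartiles 7 and 16), beside 9 at acetylated peaks and 10 at H3K4me3-only peaks.

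The next 4 stretches are centred on summits of factor peaks that overlapped a member. The motif of the factor is in capitals on either strand (TAATCC for Otx2, CAGATG for Neurod1). Such a summit can lie outside the member, as at *Srcin1*, where it was 458 bp from the H3K4me3 summit. Factor summits at members are meant in this sense throughout. For each factor they show the member of highest factor enrichment and the first of the top 5 that differed from it in holding the motif.
Otx2 at Ccdc115 and Imp4, chr1:34439510-34439659: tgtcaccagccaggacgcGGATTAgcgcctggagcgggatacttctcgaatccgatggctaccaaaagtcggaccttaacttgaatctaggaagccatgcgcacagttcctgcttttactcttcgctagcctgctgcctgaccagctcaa
Otx2 at Egf, chr3:129725184-129725333: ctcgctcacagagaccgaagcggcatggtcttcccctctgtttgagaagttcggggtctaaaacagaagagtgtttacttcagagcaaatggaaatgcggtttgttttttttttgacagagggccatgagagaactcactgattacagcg
Neurod1 at Trp53inp2, chr2:155382278-155382427: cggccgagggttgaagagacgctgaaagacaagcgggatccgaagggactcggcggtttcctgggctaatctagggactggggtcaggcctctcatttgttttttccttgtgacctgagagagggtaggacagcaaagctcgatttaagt
Neurod1 at Srcin1, chr11:97531608-97531757: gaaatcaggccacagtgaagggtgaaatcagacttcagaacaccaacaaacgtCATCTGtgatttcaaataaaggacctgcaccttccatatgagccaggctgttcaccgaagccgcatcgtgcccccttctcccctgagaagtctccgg
Within these 150 bases, 1 of the 5 strongest Otx2 summits and 1 of the 5 strongest Neurod1 summits at members held the motif.

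Members were narrower and weaker than acetylated peaks. Their width, H3K4me3 enrichment, and H3K4me1 belong to the rule or to the same list and are given as a description. The median width of mouse members was 1262 bp (quartiles 735 and 1747) and that of 13LGS members 1017 bp (561 and 1558). Acetylated peaks had medians of 1523 and 1422 bp, and H3K4me3-only peaks of 825 and 630 bp. Members thus sat between the other narrow kinds in both species.

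The same order held for H3K4me3 fold enrichment, the pooled signal of a peak as a ratio to IgG. Its median was 11.4 at mouse members (quartiles 5.32 and 20.02) and 9.83 at 13LGS members (4.56 and 19.6). Acetylated peaks had medians of 17.3 and 17.8, H3K4me3-only peaks of 8.73 and 7.32, and broad peaks of 35.2 and 37.0. The range within members was wide, from 2.21 to 107 in mouse and from 1.67 to 87.4 in 13LGS. Members therefore ran from peaks near the calling threshold to enrichments above the median of broad peaks.

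The width limit divided peaks that were alike. In mouse, the widest members were at *Ccni* and 2010109A12Rik (2999 bp, H3K4me3 enrichment 22.6), *Lsm14b* (2998 bp, 32.3), and *Map1b* (2995 bp, 26.9). The narrowest broad peaks with H3K4me1 and without H3K27ac were at *Dusp7* (3002 bp, 17.4), *Klf16* (3005 bp, 11.3), and *Pgk1* (3007 bp, 32.8). In 13LGS the 3 widest members had enrichments of 12.03, 25.4, and 44.1, of which the second was at *Ndufa11*, and the 3 peaks just past the limit 40.8, 30.5, and 33.9.

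H3K27ac was absent from members by definition, and it was usually distant. The nearest H3K27ac peak lay at a median of 26806 bp from mouse members and 19432 bp from 13LGS members. H3K4me3-only peaks lay farther from it, with medians of 30174 and 22710 bp. H3K27ac came within 1 kb of 225 mouse members (2.76%) and 619 13LGS members (8.67%), and within 100 kb of 88.2% and 91.5%. It came within 1 kb of 1.40% and 5.21% of H3K4me3-only peaks. The H3K27ac lists held 62930 peaks in mouse and 93999 in 13LGS, of which 7.57% and 9.03% touched any H3K4me3 peak. Absence here means that no interval passed the authors' q-value threshold. The lists hold no read counts, so the depth behind that absence is unknown and its part in the class was not tested.

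H3K4me1 ran past at least 1 end of nearly all members, and the rest, 3.73% in mouse and 6.74% in 13LGS, had it past neither end. A single H3K4me1 peak touched 71.4% of mouse members and 86.5% of 13LGS members, and 2 touched 27.8% and 13.3%. The H3K4me3 summit itself lay under H3K4me1 in 45.3% and 44.9%. H3K4me1 ran past both ends of 50.2% of mouse members and 32.2% of 13LGS members, and past a single end of 46.0% and 61.1%. Members lying wholly under H3K4me1, which count among those with H3K4me1 past both ends, were 27.3% and 22.6%, while H3K4me1 past both ends and not at the summit was found in 17.8% and 8.21%. By distance from the summit, the share of mouse members under H3K4me1 was 55.1% at 500 bp to the left and 54.9% at 500 bp to the right, above the summit itself, and in 13LGS it was nearly flat at 46.3% and 46.4%. The median fold enrichment of the strongest H3K4me1 peak at a member was 5.31 in mouse and 4.38 in 13LGS, beside 6.93 and 6.35 at acetylated peaks with H3K4me1.

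In mouse, H3K4me1 past a single end was mostly on the side of the transcribed gene. At 6124 members whose protein-coding starts were on a single strand, H3K4me1 ran past both ends at 2833 (46.3%), past the downstream end alone at 2570 (42.0%), and past the upstream end alone at 499 (8.15%). The share of these promoters under H3K4me1 was highest at 900 bp into the gene (75.5%), was 33.5% at the start itself, and had an upstream maximum of 44.0% at 400 bp. The H3K4me3 summit was also displaced, lying downstream of the start at 83.4% of them with a median of 151 bp. At acetylated promoters H3K4me1 ran past both ends at 59.1%, past the downstream end alone at 28.9%, and past the upstream end alone at 5.21%.

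**Figure D1:**
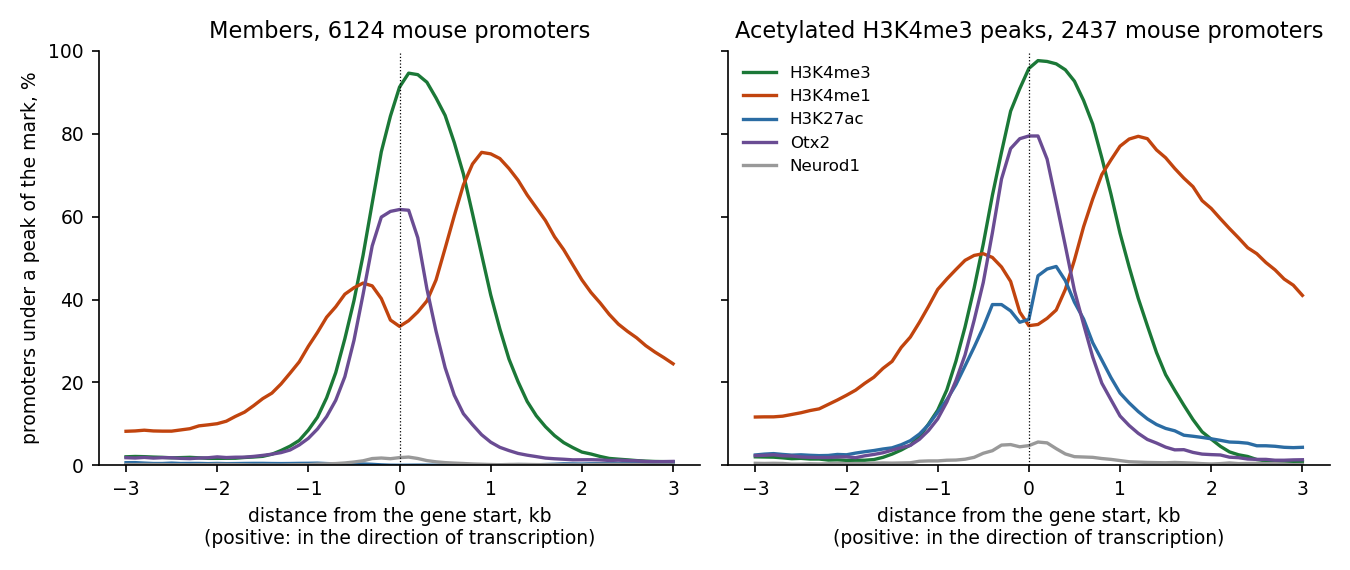
Percentage of mouse promoters (y axis) under a peak of each mark or factor, by distance from the gene start in kb (x axis, positive in the direction of transcription), for 6124 members (left) and 2437 acetylated H3K4me3 peaks (right) with starts on a single strand. In members H3K4me1 reaches 75.5% at 900 bp downstream and Otx2 61.7% at the start, and H3K27ac stays near 0 because the members were chosen to lack it.

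Position and sequence were not part of the rule and could be compared in mouse. A peak was counted at a start when it overlapped the 1 kb centred on the transcript start of a protein-coding gene in GENCODE M21. Such starts were found at 80.6% of all mouse H3K4me3 peaks under 3000 bp. Members were at a start in 6785 of 8149 cases (83.3%), acetylated peaks in 78.9%, and H3K4me3-only peaks in 70.1%. The excess over acetylated peaks was 4.31 percentage points (95% Newcombe interval 2.75 to 5.91, two-sided exact test of Fisher, adjusted p = 6.37e-08). Over H3K4me3-only peaks it was 13.1 points (10.7 to 15.6, adjusted p = 8.52e-30 in the same exact test). Within classes of equal width the excess was 8.76 points over acetylated peaks and 2.46 points over H3K4me3-only peaks (Cochran-Mantel-Haenszel chi-square tests, adjusted p = 9.47e-43 and 0.0286). With peaks limited to a −log10 q of at least 5, these were 7.76 and 4.55 points. The word promoter thus applied to most members and not to all.

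Of the other mouse members, 236 were at starts of other genes, 226 had their summit in an exon, 523 in an intron, and 379 between genes. These were small peaks, with median widths of 369 bp in introns and 448 bp between genes beside 1394 bp at protein-coding starts. Their H3K4me3 enrichment was also low, with medians of 3.78 and 4.24 beside 13.6. Otx2 overlapped 36.9% of the intronic members and 71.2% of those between genes. Of the members at protein-coding starts, 715 (10.5%) covered starts of 2 or more genes and 661 had starts on both strands, beside 12.1% and 11.2% of acetylated peaks at starts.

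Mouse members were rich in CpG. CpG islands are stretches that escape DNA methylation and hold most constitutively expressed and many developmental promoters. A summit was called CpG-rich when the 300 bp around it had a GC content of at least 50% and at least 0.6 of the CpG expected from its bases, which 67.8% of all peaks under 3000 bp met. Members met it in 71.9%, acetylated peaks in 58.9%, and H3K4me3-only peaks in 66.5%. The difference from acetylated peaks was 13.0 points (11.1 to 14.9, Fisher's exact test, adjusted p = 1.91e-41) and was 16.7 points when taken within classes of equal width. The difference from H3K4me3-only peaks was 5.42 points (2.88 to 8.03, exact test, adjusted p = 3.05e-05), but within width classes it turned to -3.99 points. The median GC content was 64.7% at members, 61.7% at acetylated peaks, and 62.7% at H3K4me3-only peaks.

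Short motifs were counted in the same windows. The Sp motif GGGCGG was present on either strand in the 300 bp around 53.5% of member summits, beside 49.9% of all mouse H3K4me3 peaks and 44.2% of acetylated peaks. The TATA motif TATAAA was present in 2.99% of members and 3.29% of all peaks, the ETS motif CCGGAAGT in 2.55% and 2.78%, and the CRE motif TGACGTCA in 0.859% and 0.938%. TAATCC was present in 3.61% of members and 4.32% of all peaks, and CAGATG in 11.5% and 12.03%. None of the 6 contains another, and a match is a description of the letters in the window.

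Otx2 was less frequent at members than at acetylated peaks in both species. Among all H3K4me3 peaks under 3000 bp, 77.2% overlapped Otx2 in mouse and 61.2% in 13LGS. Of mouse members, 6010 (73.8%, 95% Wilson interval 72.8 to 74.7) overlapped Otx2, and of mouse acetylated peaks 91.5% (90.5 to 92.3). Of 13LGS members, 3695 (51.7%, 50.6 to 52.9) overlapped Otx2, and of 13LGS acetylated peaks 80.5% (79.5 to 81.4). These intervals cover counting error only.

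The differences were -17.7 points in mouse (-19.0 to -16.3, Fisher's exact test, adjusted p = 3.84e-115) and -28.8 points in 13LGS (-30.2 to -27.2, exact test, adjusted p = 1.97e-280). Width moved with them. Within classes of equal width the differences were -14.1 and -21.9 points, and in a fixed window of 500 bp around each H3K4me3 summit -18.6 and -28.3 points.

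Against H3K4me3-only peaks the order depended on width. Otx2 overlapped 63.1% of these in mouse and 44.3% in 13LGS, so members exceeded them by 10.6 points (8.02 to 13.3, Fisher's exact test, adjusted p = 3.25e-16) and by 7.41 points (5.39 to 9.43, exact test, adjusted p = 1.27e-12). Within width classes the difference was -0.370 points in mouse (Cochran-Mantel-Haenszel chi-square test, adjusted p = 0.767) and -2.94 points in 13LGS (same chi-square test, adjusted p = 0.00460). In mouse, members of 500 bp or less overlapped Otx2 in 38.8% and H3K4me3-only peaks of that width in 27.9%. Between 500 and 1000 bp the shares were 62.9% and 71.5%.

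**Figure D2:**
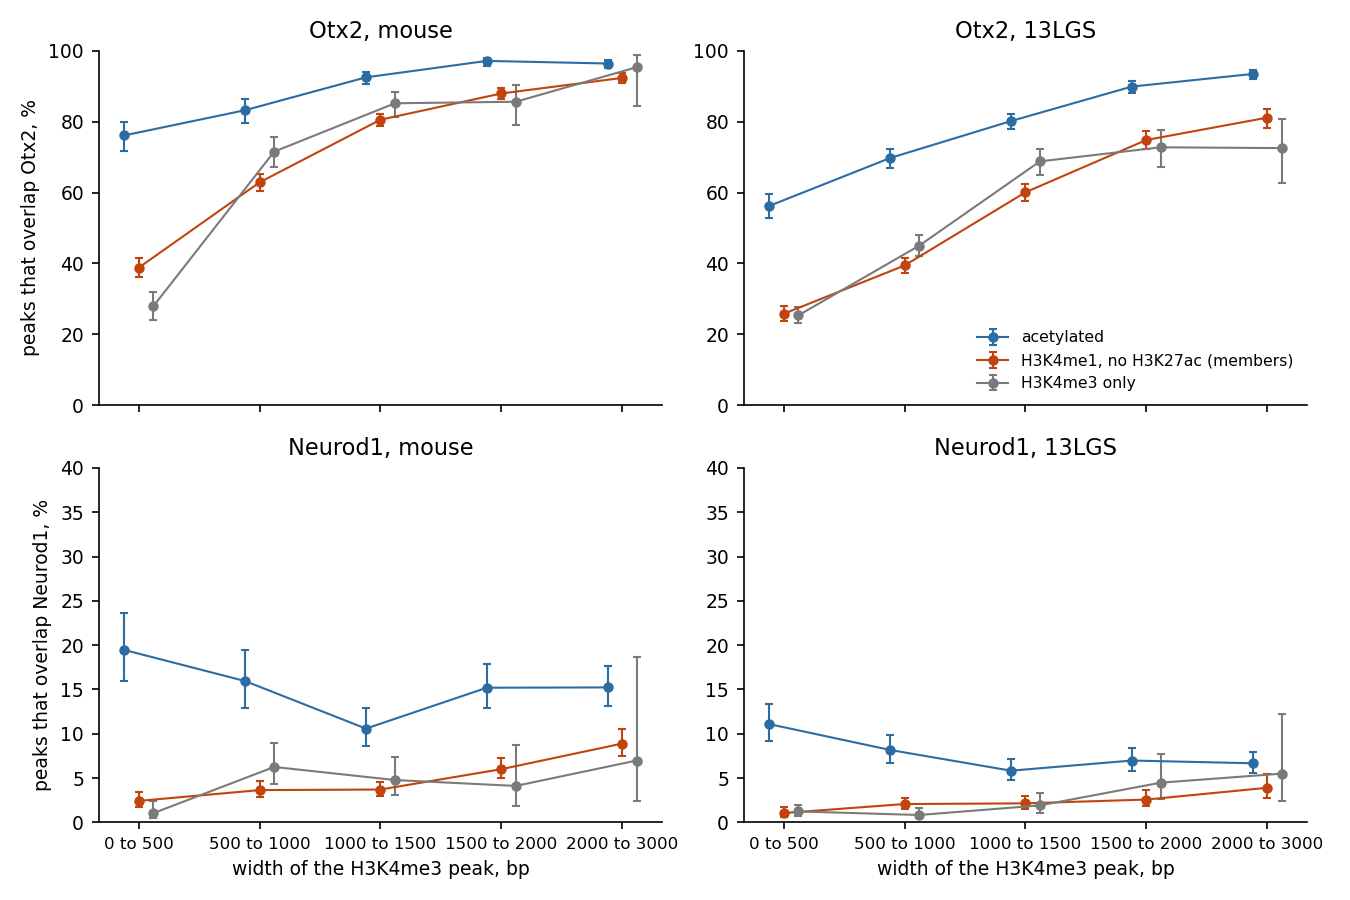
Percentage of H3K4me3 peaks that overlap Otx2 (upper panels) and Neurod1 (lower panels) by width of the H3K4me3 peak in bp, in mouse (left) and 13LGS (right), with 95% Wilson intervals as bars. Acetylated peaks lie above members in every width class, while members and H3K4me3-only peaks cross.

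Neurod1 was rare at members. Its peaks touched 7.34% of mouse and 4.05% of 13LGS H3K4me3 peaks under 3000 bp. Members carried it in 392 cases in mouse (4.81%) and 154 in 13LGS (2.16%), beside 14.7% and 7.41% of acetylated peaks. The differences were -9.91 points (-11.2 to -8.68, Fisher's exact test, adjusted p = 2.10e-67) and -5.26 points (-5.99 to -4.55, exact test, adjusted p = 4.59e-49). Compared with H3K4me3-only peaks, members differed by 0.818 points in mouse (-0.380 to 1.82, exact test, adjusted p = 0.184) and 0.565 points in 13LGS (-0.00255 to 1.08, exact test, adjusted p = 0.0574), and neither passed the threshold of 0.05.

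Where Neurod1 was present, Otx2 was usually present too, at members and at the other kinds of H3K4me3 peak. Of mouse members with Neurod1, 382 of 392 (97.4%) also overlapped Otx2, and of 13LGS members 138 of 154 (89.6%). At acetylated and H3K4me3-only peaks with Neurod1 the shares were 98.4% and 96.7% in mouse, and 95.7% and 87.3% in 13LGS. Neither factor was found at 2129 mouse members (26.1%) and 3430 13LGS members (48.0%). Acetylated peaks lacked both in 8.31% and 19.2%, and H3K4me3-only peaks in 36.7% and 55.5%. Seen from the factor lists, 22.5% of all mouse Otx2 peaks and 14.1% of 13LGS Otx2 peaks touched a member, and 8.47% and 3.37% of Neurod1 peaks did. Any H3K4me3 peak was touched by 43.3% and 45.4% of Otx2 peaks, and by 25.6% and 17.2% of Neurod1 peaks.

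The Otx2 signal at members was modest and close to the start, and neither trait was particular to members. Its median fold enrichment was 3.68 at mouse members with the factor and 3.17 at 13LGS members. Acetylated peaks had 4.39 and 3.67, and H3K4me3-only peaks 3.60 and 3.11. The Otx2 summit was within 250 bp of the H3K4me3 summit in 51.6% and 63.9% of such members. Acetylated peaks had shares of 51.1% and 60.8%, and H3K4me3-only peaks of 63.5% and 74.6%. At mouse members with starts on a single strand it was within 500 bp of the gene start in 87.7%. It was upstream of the start in 56.3%, with a median position of 72.5 bp upstream. At such acetylated promoters these shares were 84.6% and 54.0%.

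Few of these Otx2 summits held the letters of the motif. In mouse, TAATCC was present within 150 bp of 524 of 6551 Otx2 summits at members (7.999%), beside 9.44% at acetylated peaks, 25.6% of Otx2 summits away from H3K4me3, and 18.2% of the whole list. Among the 100 Otx2 peaks of highest enrichment at members it was present in 27. For Neurod1, CAGATG was present at 33.8% of 402 summits at members, 33.8% at acetylated peaks, and 58.5% away from H3K4me3. The median GC content of these windows was 62.3% at Otx2 summits of members and 49.7% away from H3K4me3, and 62.3% and 52% for Neurod1, and its part in the shares was not tested.

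The strongest members differed by measure. By H3K4me3, the first 5 in mouse were *Ywhae* (107-fold), *Phf23* (95.8), *Gnb1* (88.1), *Bptf* (71.9), and *Rack1* (71.9). *Gnb1* encodes the G protein beta subunit of the rod transducin complex and of other tissues, *Bptf* a subunit of the NURF chromatin remodeller, and *Rack1* a ribosomal scaffold protein. The peak of *Gnb1*, at chr4:155490741-155493508, had Otx2 at 5.22-fold and its nearest H3K27ac 2097 bp away, while that of *Rack1* was 401212 bp from H3K27ac.

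By Otx2, the first 5 mouse members were at the paired starts of *Ccdc115* and *Imp4* (30.9-fold), at *Egf* (24.4), at *Cenpo* and *Ptrhd1* (22.6), at *Cyth2* (21.9), and at *Smim7* and *Tmem38a* (20.7). Of these 5 peaks, 3 covered the starts of 2 genes. *Imp4* acts in ribosomal RNA processing and *Cenpo* is a kinetochore protein. The first 5 in 13LGS had Otx2 enrichments between 15.39 and 19.96 and had no gene name here, and the strongest, on chromosome 5, lay 277 bp from H3K27ac.

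By Neurod1, the mouse members were at *Trp53inp2*, an autophagy gene (14.7-fold, with Otx2 at 15.9), between genes on chromosome 19 (11.2), in introns of *Srcin1* (10.2) and *Xkr7* (10.0), and between genes on chromosome 10 (9.82). Apart from *Trp53inp2*, whose H3K4me3 enrichment was 16.2, these had H3K4me3 enrichments of 2.83 to 4.46 and widths of 309 to 590 bp. In 13LGS the first 5 had Neurod1 enrichments from 5.98 to 11.4.

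H3K4me3 strength ordered the other features of members. From the lowest to the highest quartile of H3K4me3 enrichment, the share of mouse members with Otx2 was 42.0%, 70.3%, 88.8%, and 94.0%. Across the same quartiles the share at protein-coding starts was 52.2%, 86.2%, 97.1%, and 97.5%, and the CpG-rich share 43.8%, 70.7%, 84.6%, and 88.5%. In 13LGS the Otx2 share was 27.3%, 46.5%, 64.0%, and 69.2%. The Neurod1 share also climbed with each quartile in mouse, at 2.80%, 4.62%, 5.20%, and 6.63%, and in 13LGS it was 1.90%, 1.85%, 1.90%, and 2.97%. Width moved with these quartiles, with medians of 425 to 1845 bp in mouse and 388 to 1601 bp in 13LGS.

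**Figure D3:**
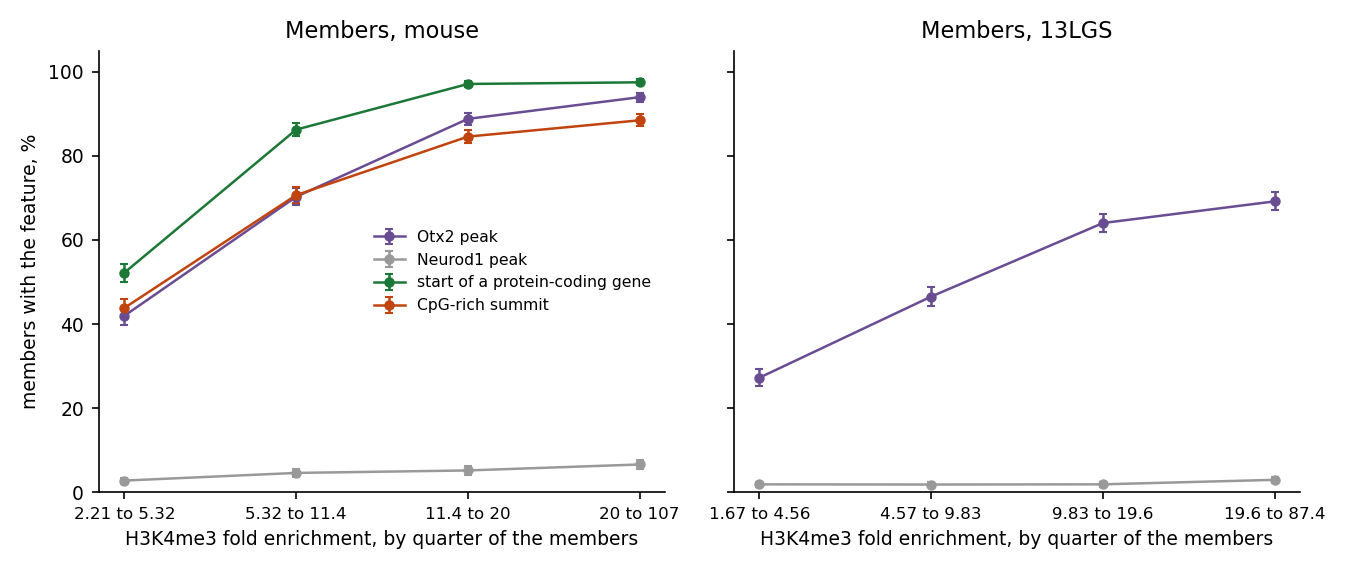
Percentage of members with each feature (y axis) in the 4 quartiles of H3K4me3 fold enrichment (x axis, ratio to IgG), in mouse (left) and 13LGS (right), where starts and sequence were not analysed. Bars are 95% normal intervals for counting error. The Otx2 share runs from 42.0% to 94.0% in mouse and from 27.3% to 69.2% in 13LGS.

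In mouse, 7235 of 21866 protein-coding genes (33.1%) had a member at a start. Of the 12053 genes with any H3K4me3 peak at a start, that was 60.0%, and 6989 of the 7235 had neither an acetylated nor a broad peak at another start. The median H3K4me3 enrichment at the member was 14.7 over these genes, and Otx2 was found at the member of 80.9%. Gene lists are described below by counts beside these shares, with no test. A gene with several starts may be counted under several kinds of peak.

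**Figure D4:**
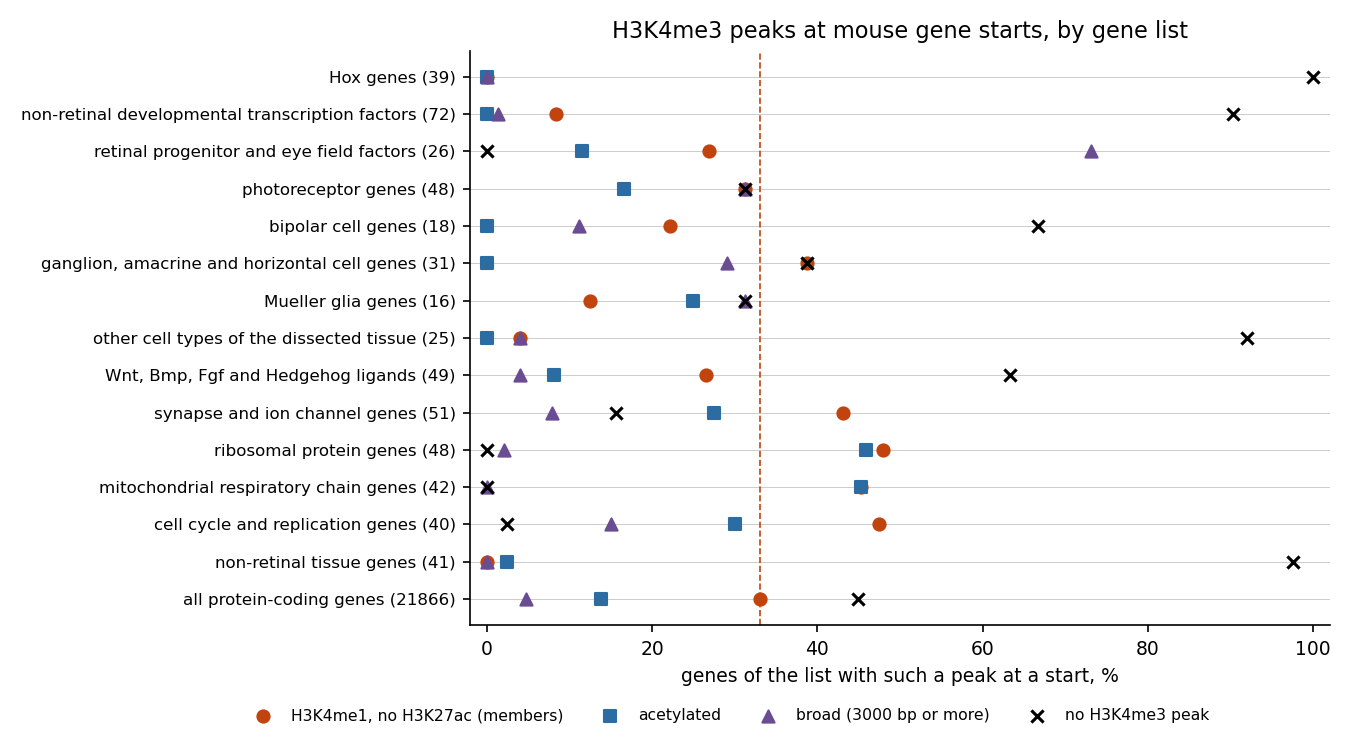
Percentage of the genes of each list (x axis, number of genes in parentheses) with a member, an acetylated peak, or a broad peak at a start, or with no H3K4me3 peak, in mouse. The dashed line is the 33.1% of all protein-coding genes with a member, and symbols at the same value lie over each other.

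Genes of translation, respiration, and cell division were mostly divided between members and acetylated peaks. Nearly all had H3K4me3, and of those that did, a member was found at 47.9% of ribosomal protein, 45.2% of mitochondrial, and 48.7% of cell cycle genes, below the 60.0% of all genes with H3K4me3. Of 48 ribosomal protein genes, 23 had a member, 22 an acetylated peak, 1 a broad peak, and 5 an H3K4me3-only peak. The strongest members were at *Rpl5* (65.9-fold), *Rps4x* (63.0), *Rpl23* (60.1), and *Rps16* (53.7). Otx2 was found at the member of 22 of the 23 genes, with enrichments of 3.45, 3.26, 2.11, and 3.49 at the 4 named. Their nearest H3K27ac peaks were 37217, 104631, 20569, and 11568 bp away.

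Of 42 genes of the mitochondrial respiratory chain, 19 had a member, 19 an acetylated peak, none a broad peak, and 4 an H3K4me3-only peak. The strongest members were at *Atp5b* (54.4), an ATP synthase subunit, at *Cox6c* (38.0) and *Cox5a* (31.0), cytochrome c oxidase subunits, and at *Ndufa9* (31.8), a complex I subunit. All 19 genes had Otx2 at the member. The median H3K4me3 enrichment at the member was 22.1 in this list and 25.9 in the ribosomal list, above the 14.7 of all genes.

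Of 40 cell cycle and replication genes, 19 had a member, 12 an acetylated, 6 a broad, and 2 an H3K4me3-only peak, and 1 had no H3K4me3. The mitotic kinase genes *Aurkb* (47.1), *Plk1* (43.0), and *Aurka* (29.8) and the topoisomerase gene *Top2a* (43.0) had the strongest members. *Aurkb* and *Plk1* lacked Otx2, which was found at the member of 15 of the 19.

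Regulators of retinal progenitors were mostly outside the class, with peaks past the width limit. All 26 genes of this list had H3K4me3, 19 of them a broad peak, 7 a member, 3 an acetylated peak, and none an H3K4me3-only peak. The members were led by *Nfia* (41.8), a factor of late progenitors and glia, *Olig2* (15.0), *Nfix* (13.4), and the proneural gene *Neurog2* (12.5). Broad H3K4me3 at genes that define a cell type is excluded by the width limit, so the count of 7 in part restates the rule.

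Photoreceptor genes had a member about as often as all genes, at 15 of 48. Of the 33 with H3K4me3 that was 45.5%, below the 60.0% of all genes with H3K4me3. An acetylated peak was found at 8, a broad peak at 15, an H3K4me3-only peak at 2, and no H3K4me3 at 15. After *Gnb1*, the strongest members were at *Thrb* (14.3), the thyroid hormone receptor gene used by cones, *Onecut1* (13.3), a factor of early-born retinal cells, and *Samd7* (10.7), a Polycomb-associated protein of rods. The peak of *Thrb*, at chr14:17659190-17661776, had its summit 173 bp from a transcript start, carried Otx2 at 7.29-fold, and was 4142 bp from H3K27ac. It overlapped 4 of the 15 elements the study assigned to mouse *Thrb*.

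The peaks at *Crx* and *Otx2*, which encode homeodomain factors of photoreceptors, were chosen for description after their values had been seen. *Crx* and *Otx2* each had a broad peak and, at another start, a small member of 3.18-fold (223 bp) and 3.10-fold (454 bp), both without Otx2.

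Of 18 bipolar cell genes, 4 had a member, 2 a broad peak, and 12 no H3K4me3. A member was thus found at 66.7% of the 6 with H3K4me3, beside 60.0% of all genes with H3K4me3. The members were at *Prkca* (17.4), the rod bipolar kinase gene, *Isl1* (4.56), *Irx6* (3.96), and *Otop3* (3.21), and all 4 had Otx2. Of 31 ganglion, amacrine, and horizontal cell genes, 12 had a member, 9 a broad peak, none an acetylated peak, and 12 no H3K4me3. Here 63.2% of the 19 with H3K4me3 had a member. *Slc6a9*, the amacrine glycine transporter gene, had the strongest (29.2, with Otx2 at 7.23 and Neurod1 at 5.40), followed by *Nr4a2* (23.2), *Rbpms* (8.59), and *Nefm* (8.09). Of 16 Müller glia genes, 2 had a member, *Hopx* (19.7) and *Kcnj10* (8.87), with H3K27ac 981 and 234 bp away. An acetylated peak was found at 4 of the 16, a broad peak at 5, and no H3K4me3 at 5. Only 18.2% of the 11 with H3K4me3 had a member.

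Synapse and ion channel genes had members of low enrichment. Of 51, 22 had a member, 14 an acetylated peak, 4 a broad peak, and 9 an H3K4me3-only peak, and 8 lacked H3K4me3. Among the 43 with H3K4me3, 51.2% thus had a member, below the 60.0% of all genes with H3K4me3. The strongest were at *Scn8a* (27.5), a sodium channel gene, *Nlgn3* (16.1), *Grik2* (11.9), and *Shank3* (10.4), and the median was 6.86. Otx2 was found at the member of 6 of the 22. Low medians were not particular to this list. Photoreceptor genes had 6.39, ganglion, amacrine, and horizontal cell genes 5.57, and bipolar cell genes 4.26, beside 14.7 over all genes. The ribosomal, mitochondrial, and cell cycle lists had medians above that of all genes.

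Of 49 ligand genes of the Wnt, Bmp, Fgf, and Hedgehog families, 13 had a member, 4 an acetylated, 2 a broad, and 1 an H3K4me3-only peak, and 31 none. A member was thus found at 72.2% of the 18 with H3K4me3, above the 60.0% of all genes with H3K4me3. The members were led by *Fgf13* (15.8), *Wnt5a* (9.31), *Gdf6* (8.505), and *Fgf12* (7.04), with a median of 5.81 over the 13. Otx2 was found at 2 of the 13. In both of these lists the Otx2 share, 27.3% and 15.4%, was below the 80.9% of all genes with a member. Both lists also had low median H3K4me3 enrichments, 6.86 and 5.81, whose part in the shares was not tested. Bipolar cell genes, with a lower median of 4.26, had Otx2 at the member of all 4. Photoreceptor genes and ganglion, amacrine, and horizontal cell genes had similar medians of 6.39 and 5.57 and higher Otx2 shares. Other lists were below 80.9% too, with 53.3% for photoreceptor, 57.1% for progenitor, and 50% for ganglion, amacrine, and horizontal cell genes. Transcription factor genes of other tissues had 50% and cell cycle genes 78.9%. The ribosomal, mitochondrial, bipolar cell, and Müller glia lists were above it, and *Mitf*, described below, had Otx2.

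Genes of other tissues mostly lacked H3K4me3 at a start. None of 39 *Hox* genes had H3K4me3 at a start. Of 72 transcription factor genes of other tissues, 65 had none, 6 had a member, and 1 a broad peak. Among the 7 with H3K4me3, 85.7% thus had a member, above the 60.0% of all genes with H3K4me3. Of the 6, those named here had H3K4me1 enrichments above the member median of 5.31. *Runx2*, the osteoblast factor gene, had 13.1-fold H3K4me3 and 7.11-fold H3K4me1, *Ptf1a*, which is also an amacrine and horizontal cell factor, 5.23 and 19.99, and *Foxc1* 3.29 and 12.02. Of 25 genes of vessels, microglia, pigment epithelium, astrocytes, and lens, 1 had a member (*Mitf*, 6.63), 1 a broad peak, and 23 none, and of 41 genes of other organs 1 had an acetylated peak and 40 none.

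Few 13LGS members could be named, because genes were taken from start elements that the study listed, in a copy of that list that was held only in part. Of 16 listed genes with such an element at hand, 3 had a member in 13LGS and 5 in mouse, and 2 had one in both. These were *Irx6*, with H3K4me3 enrichments of 8.19 in 13LGS and 3.96 in mouse, and *Nefl*, the light neurofilament gene, with 2 members in 13LGS (9.67 and 3.67) and 1 in mouse (5.30). *Kcnb2*, a potassium channel gene, had a member of 14.2-fold beside an acetylated peak in 13LGS and an acetylated peak alone in mouse. *Isl2* was a member in mouse (4.80) and broad in 13LGS, and *Cacna1c* a member in mouse (3.72) with no H3K4me3 at its element in 13LGS.

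At *Mef2c*, *Thrb*, and *Rxrg*, which the study followed, members overlapped few of the assigned elements, and so did the other kinds of H3K4me3 peak. A 13LGS member on chromosome 1 (175420179 to 175422698, 24.2-fold) overlapped an element within the body of *Mef2c*, a MADS-box transcription factor gene, and carried Otx2 at 4.002-fold. In mouse a member of 7.12-fold lay at a start of *Mef2c*, outside the 2 elements assigned to it. A 13LGS member on chromosome 2 (182998621 to 182999122, 9.79-fold) overlapped an intergenic element of *Thrb* and carried Otx2 at 3.37-fold, its summit 18 bp from that of H3K4me3. Of the 55 13LGS elements of *Thrb*, members overlapped 1, H3K4me3-only peaks 1, and broad peaks 4. No member overlapped the 15 mouse or the 74 13LGS elements of *Rxrg*. There, 1 acetylated peak per species overlapped 3 of the mouse and 4 of the 13LGS elements.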

How the data were processed

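P5 13LGS and P2 mouse retinas were profiled by CUT&RUN. The authors trimmed reads (cutadapt 3.5, Trim Galore 0.6.4), aligned them with Bowtie2 to GRCm38 or HiC_Itri_2, kept reads of mapping quality above 30 (SAMtools 1.12), removed duplicates, and called peaks with macs2 jointly across libraries against IgG at a q-value of 0.05. The deposited lists give each peak a fold enrichment (a ratio to IgG) and a −log10 q-value; neither was rescaled, and the joint calls leave no replicate spread and no known depth.

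Intervals were compared in Python 3.11.15 (pandas 2.3.3, scipy 1.17.1), with an overlap of 1 bp. The overlap code was tested on simulated intervals against bedtools 2.31.1, with 0 differences. Shares of peaks were compared by Fisher's exact test (two-sided, Benjamini-Hochberg adjusted over 12 comparisons) and within 5 width classes (limits 500, 1000, 1500, 2000, and 3000 bp) by Cochran-Mantel-Haenszel tests. Mouse starts came from GENCODE M21, on the GRCm38 genome from RefSeq. A 13LGS genome was not used here, and some genes and sequences covered by the naming rule are not reported here. The members and gene lists were chosen with earlier results of these data known. Named are, per list, up to 4 genes with the strongest member, the 5 members of highest H3K4me3, Otx2, and Neurod1 enrichment, the 3 peaks on either side of the width limit, and members at elements of *Mef2c*, *Rxrg*, and *Thrb* or at listed start elements in 13LGS.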

Additional observations from a re-analysis of the deposited data

Results flagged for a closer look

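The Otx2 difference between members and H3K4me3-only peaks was itself different between the lists of the 2 species. The log2 odds ratio was 0.71 in mouse and 0.43 in 13LGS, a difference of 0.28 (SE 0.10, Woolf's chi-square test of the difference, adjusted p = 0.0251 over 4 such tests). Within width classes both differences changed sign, and the difference between the lists was not tested there. Peaks were the units, and species varied together with age, number of libraries, and mix of antibodies. A species effect therefore cannot be told apart from these. The other 3 comparisons had differences of 0.02, 0.09, and -0.17 with adjusted p-values of 0.817 to 0.885 in the same chi-square test.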

How the results depend on the processing

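The comparisons were repeated with a 100 bp overlap, a −log10 q of at least 5, a fold enrichment of at least 2.5, no H3K27ac within 1 kb, width limits of 2000 and 5000 bp, peaks within 500 bp merged, chromosomes only, equal numbers of peaks per target, other start and summit windows, and width classes, and, chosen after seeing the data, within 5 classes of H3K4me3 enrichment. Of 162 values, 149 were counted as unchanged. For a difference of shares this means that direction and side of the threshold were kept. The 9 counts of members per species and the 8 counts of genes with a member have neither. All of these counts were unchanged in the sense of a size similar to the value as reported. The exceptions were all against H3K4me3-only peaks. For CpG-rich summits the difference was -1.80 points at a −log10 q of at least 5, -3.99 within width classes, and 0.953 within enrichment classes. For Otx2 within width classes it was -0.370 points in mouse and -2.94 in 13LGS. For Neurod1, which did not pass the threshold as reported, it was -0.351 in mouse within width classes and -0.0475 in 13LGS at a −log10 q of at least 5, again without passing. It passed the threshold in mouse with the enrichment limit (1.06), and in 13LGS with the enrichment limit (0.543), no H3K27ac within 1 kb (0.635), the 5000 bp limit (0.585), merging (0.698), and chromosomes only (0.611). Apart from the width and enrichment classes, the cause was not tested. The excess at starts kept its direction and ran from 2.74 to 9.69 points over acetylated and from 2.46 to 14.9 over H3K4me3-only peaks. Members numbered 6841 to 8455 in mouse and 5955 to 7279 in 13LGS. No paired analysis was possible because the lists hold 1 value per peak for pooled libraries, and for the same reason no replicate could be left out.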

Other observations

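Mouse members on the X chromosome overlapped Otx2 less often than those on autosomes. The share was 158 of 261 (60.5%, 95% Wilson interval 54.5 to 66.3) on X and 74.2% (73.2 to 75.1) over all autosomes, where it ran from 70.3% to 78.1% over the 19 chromosomes. H3K4me3 enrichment at these members had medians of 11.6 on X and 11.4 on autosomes, and width medians of 1152 and 1263 bp. Acetylated peaks had shares of 88.4% (82.1 to 92.6) on X and 91.6% (90.6 to 92.5) on autosomes. This was noticed after the values had been seen and was not tested.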
